A study of Mus musculus with 6 samples.

Results

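Of 449338 exact 5' ends of RNA tags listed in 6 mouse tissues, 564 were present in at least 5 of the 6 libraries and are described here as shared ends. They were chosen by their tag counts alone: an end is 1 base on 1 strand, and it was kept when 5 or more libraries held at least 1 tag there. The shared ends make up 0.126% of all ends and hold 115471 tags, which is 13.7% of all unique tags. Of the 564, 151 ends were found in all 6 libraries and 413 in 5.

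The tags come from parallel analysis of RNA ends (PARE), which reads about 20 bases downstream of a 5' monophosphate on polyadenylated RNA. Whole brain, lung, liver, kidney, ovary and spleen of adult mice on the BALB/c background each gave 1 library, with no treatment or genotype named. With 1 library for a tissue there is no replicate, so no test between tissues was made. All intervals below are 95% intervals. Those of a library's share of tags and of ratios of CPM cover counting error only. Those of shares or medians over ends treat the ends as independent, which neighbouring ends are not. PCR reads without molecular identifiers are not independent molecules. Levels are given as tags in 1000000 unique tags of a library (CPM).

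Capped messenger RNA is not ligated in this method, so a tag marks a place where RNA was cut, decapped or partly degraded. MicroRNA hairpins are excised from long polyadenylated transcripts by Drosha, which leaves a new 5' end just after the hairpin's 3' arm. Box C/D small nucleolar RNAs (snoRNAs), which guide methylation of ribosomal RNA, lie mostly within introns of host genes, and their box C element stands a few bases from their own 5' end. The poly(A) signal stands shortly before the place where a messenger RNA is cut and polyadenylated.

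Among the shared ends that begin where a mature microRNA begins, 5 share 1 seed, the bases 2 to 8 that pair with targets. Their mature sequences are shown (RefSeq, GRCm38.p6) with the seed in capitals.
let-7b-5p: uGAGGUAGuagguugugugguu
let-7d-5p: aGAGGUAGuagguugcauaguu
let-7e-5p: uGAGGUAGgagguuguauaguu
let-7g-5p: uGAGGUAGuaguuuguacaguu
miR-98-5p: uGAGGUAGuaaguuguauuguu
miR-26b-5p, with another seed: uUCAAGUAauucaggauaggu

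The second kind of microRNA end lies after the 3' arm. These tags are shown because each begins at the first base after the mature 3' arm microRNA, or, for let-7b, 1 base before it.
after let-7b-3p, chr15:85537830-85537850, plus strand: ctgaggcgcccagggacacag
after miR-24-3p (Mir24-2), chr8:86732796-86732816, plus strand: gagtccagccccctaggagct
after miR-142a-3p, chr11:87570428-87570448, plus strand: tgagtgcactgtgggcttcgg
after miR-126a-3p, chr2:26446944-26446964, plus strand: cggtcagcagcccagcgccag

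A set of 52 shared ends carried the box C letters TGATGA, starting at base 6, 7 or 8 of the tag. The letters are in capitals in these 6 examples, all in mm9 coordinates.
2410006H16Rik, chr11:62416576-62416595, plus strand: tgcaaTGATGAtgaaactag
Gas5, chr1:162966814-162966833, plus strand: ctgcaTGATGAcgaacaaat
Gas5, chr1:162966190-162966209, plus strand: ccacaaTGATGAcatcatat
Rack1, chr11:48615537-48615556, plus strand: cctagTGATGAcaagacgac
no gene matched, chr8:125626932-125626951, plus strand: gtggaaTGATGAcattctcc
no gene matched, chr9:20693935-20693955, plus strand: gtctgaTGATGAgcccattgc

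Poly(A) signals, spelled AATAAA or ATTAAA and searched in the sense of the tag, stood in 118 shared ends. The signal is in capitals in 4 of them.
Rpp25l, chr4:41659075-41659094, minus strand: tagggaagggaAATAAAggt
Apoe, chr7:20281626-20281645, minus strand: ttgcttAATAAAgattctcc
Fibp, chr19:5465020-5465040, plus strand: ataccctgagAATAAAgttgc
no gene matched, chrX:163645025-163645044, minus strand: AATAAAgttttaaaacctga

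The strongest ends mostly carried none of these motifs. The 4 with the highest median level, and the one within the gene Mtch1, are shown because they come first by level.
chr1:24619939-24619958, minus strand: atcaacctgcacactgttat
chr10:80808851-80808871, minus strand: agccccttcccctgcgccttt
chr19:31161459-31161478, plus strand: aatttcggttgggaaaaaaa
chr17:39979944-39979963, plus strand: atcgatgtggtgctccggag
Mtch1, chr17:29469067-29469087, minus strand: atctagtcctcccctcgtggt

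The libraries differed in depth from 29213 unique tags in ovary to 493121 in lung, so that 1 tag in ovary equals 16.9 tags in lung. Every shared end was present in lung, and 465 of the 564 had most of their tags there. Brain lacked a tag at 154 shared ends, ovary at 101, spleen at 97, liver at 44 and kidney at 17. Which library stood highest also depended on the scaling. With a trimmed mean of M values taken over the shared ends, 399 of the 564 ends kept the library that was highest in CPM, and with one taken over all ends 176 did, with lung highest at 416. Orders of libraries below are in CPM. A count of 0 allows 3 tags, which is 6.08 CPM in lung and 103 CPM in ovary. Gene starts could be matched for only 9 of the 41 tissue and blood markers listed, and those of brain, liver and spleen could not be checked. The matched markers Kap, Umod, Gpx3 and Miox were highest in kidney, Sftpa1 and Ager in lung, and Inha in ovary. Kidney markers were present in the lung library too: Kap stood at 53941 CPM in kidney and 4662 CPM in lung. Each library carried a tissue barcode, and the part of tags carried over between libraries in a shared end was not tested.

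Near the threshold the ends were thin. Just inside it, 6 ends had exactly 1 tag in each of 5 libraries, and 71 of the 413 ends in 5 libraries had 10 tags or fewer. Just outside it, the 1415 ends found in 4 libraries had a median of 12 tags and up to 1331. The ends in 5 libraries had a median of 26 tags and those in all 6 a median of 113. At 50 shared ends no library but 1 held more than 1 tag, and at 126 none but 1 held more than 2.

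Tags were concentrated on a few of the shared ends. The single strongest end held 17.5% of the tags at shared ends, the 10 strongest 47.3% and the 50 strongest 77.1%. The shared ends held 13.6% (13.2 to 14.0) of the unique tags in brain, 13.7% (13.6 to 13.8) in lung and 14.99% (14.7 to 15.2) in liver. They held 14.0% (13.8 to 14.2) in kidney, 16.04% (15.6 to 16.5) of those from ovary and 9.94% (9.66 to 10.2) in spleen. Spleen was therefore lowest, and ovary highest. Without the strongest shared end of each library the kidney share was 6.95% and the ovary share 12.8%. That 1 end held 12279 of the kidney tags at shared ends.

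By position, the 564 ends formed 403 runs of ends no more than 10 nt apart, and 151 ends had another shared end 1 nt away. They fell in 348 strand-specific windows of 2 kb, of which 261 held 1 shared end and 18 held 5 or more.

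By the letters of their tags and by matches to RefSeq, the shared ends were sorted into 6 classes. There were 19 ends in microRNA hairpins (3.37%), 14 in a stretch of chromosome 17 (2.48%), and 52 with the box C motif (9.22%). The chromosome 17 stretch was set after the tags had been seen, and whether it holds ribosomal RNA was not checked against a database. A further 7 held the letters GGTGGCGCA, found in mouse B1 repeats (1.24%), 117 held a poly(A) signal and none of the former (20.7%), and 355 held none of these (62.9%). The classes took different shares of the libraries.

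**Figure D1:**
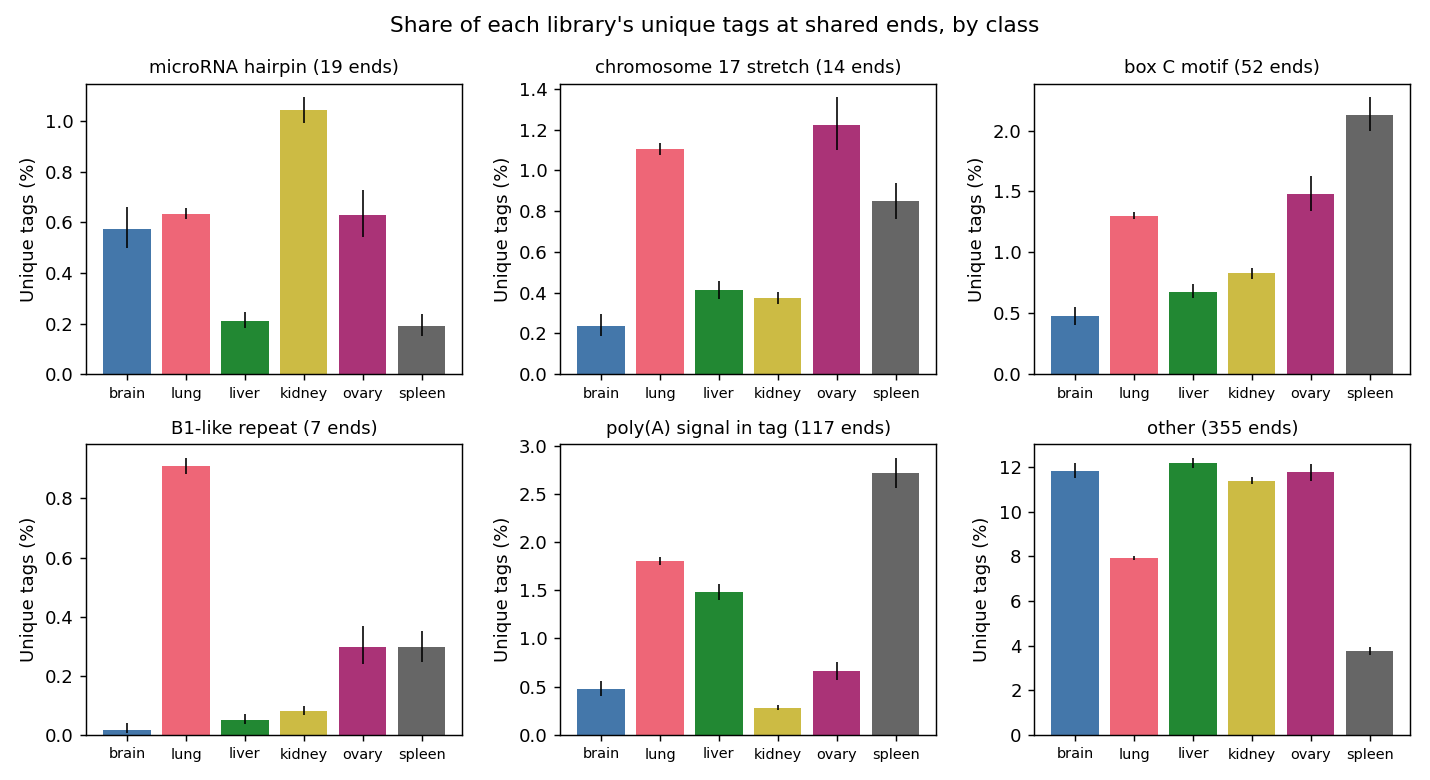
Share of each library's unique tags (vertical axis, percent) at shared ends of 6 classes; bars are the 6 libraries and error bars 95% exact binomial intervals for counting error. Kidney is highest for microRNA hairpins, spleen for box C motifs and poly(A) signals, and lung for B1-like ends; when libraries are scaled over the shared ends, lung is highest for box C motifs and poly(A) signals too.

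The microRNA class comprised 17 hairpins, out of 155 of 1005 RefSeq hairpins that could be placed by deposited tags. Mature starts were matched for let-7b, let-7d, let-7e, let-7g and miR-98, which share the seed GAGGUAG, for miR-26b, and, 1 base in, for miR-3535. The let-7 family holds back proliferation and is abundant in differentiated tissue. At the mature start of let-7b-5p kidney had 957 tags, lung 685, brain 78, liver and ovary 56 each, and spleen 7. Scaled to depth, kidney stood highest at 5898 CPM, brain followed at 2337 CPM, and spleen was lowest at 163 CPM. Kidney exceeded brain by 2.52 times (2.002 to 3.22). Its neighbour after the 3' arm, 75 nt downstream, was ordered differently. There ovary had 2362 CPM, lung 2164, kidney 930.5, brain 929, liver 443 and spleen 163. Ovary and lung did not differ there beyond counting error, at 1.09 times (0.843 to 1.39).

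The other seed-sharing starts were thinner. The let-7d-5p start had 67 tags in kidney, 52 in lung, 11 in brain, 7 in ovary, 4 in liver and none in spleen. That of let-7e-5p had 22 tags in brain, 47 in lung, 19 in kidney, 3 each in liver and ovary and none in spleen, and brain led in CPM by 5.63 times (2.91 to 10.996). The let-7g-5p start held 52 tags in all and the miR-98-5p start 28, and both stood highest in brain in CPM. Spleen had no tag at 3 of these 5 starts. For miR-26b-5p, a different seed, kidney had 286 of the 403 tags and led at 1762 CPM, against 443 CPM in liver, 171 in ovary, 140 in lung, 116 in spleen and 89.9 in brain.

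Ends after a 3' arm were found for let-7b (2 neighbouring ends), both miR-24 genes, miR-142a, miR-126a, miR-671, miR-146a, miR-93 and miR-425. Just past the 3' arm of miR-142a, which blood cells express, the level stood at 629 CPM in spleen and 531 CPM in lung, against 171 in ovary, 114 in liver, 92.4 in kidney and 59.9 in brain. Spleen and lung did not differ beyond counting error, at 1.18 times (0.765 to 1.76). For miR-126a, which endothelial cells make from an intron of Egfl7, the end had 298 of its 329 tags in lung, at 604 CPM. There it was 4.41 times (1.71 to 16.3) the level of ovary, next in order at 137 CPM, and spleen had no tag. After Mir24-2 lung was highest at 815 CPM and kidney next at 622 CPM, a ratio of 1.31 (1.05 to 1.65). The end after Mir24-1 held 58 tags against 528 after Mir24-2. Both genes encode the same mature miR-24-3p, and the letters after the hairpins tell them apart.

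As a class, microRNA ends took 1.04% (0.994 to 1.09) of the kidney tags and 0.191% (0.152 to 0.237) of the spleen tags, a ratio of 5.46 (4.37 to 6.90). Without the mature start of let-7b-5p, lung was highest at 0.495% and kidney followed at 0.453%. Lung was also highest with the scaling over all ends, at 2.93 against 2.07 in kidney as scaled percent. Of the hairpin ends, 2 were of neither kind. One lay in the miR-421 hairpin, 57 nt after the start of its 5' arm, with 14 tags, and the other in Mir5099, with 44 tags. The latter's tag shares 14 letters in a row with the strongest end of the chromosome 17 stretch, and to which locus its tags belong was not tested. The miR-3535 end also holds the box C letters.

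The box C letters were more frequent at shared ends than at others. TGATGA began at base 6, 7 or 8 of the tag in 53 of the 564 shared ends, the miR-3535 end included, which is 9.40% (7.12 to 12.1). Among 4605 ends with at least 10 tags found in 1 to 4 libraries the share was 1.15% (0.863 to 1.503), and among all 448774 ends in 1 to 4 libraries 0.187% (0.175 to 0.200). Counting 1 end for each run within 10 nt, the shares were 8.93% (6.34 to 12.2) and 2.13% (1.53 to 2.88). With at least 20 tags on both sides they were 12.1% (8.99 to 15.7) and 1.40% (0.896 to 2.07). The rule does not use the letters, but the motif and its bases were chosen after the tags had been seen. The contrast is therefore a description. Neighbouring ends also share letters and are not independent. The motif began at base 6 in 24 shared ends, at base 7 in 26 and at base 8 in 3. Anywhere in the tag it stood in 57 shared ends (10.1%), in 1.87% of the ends with at least 10 tags and in 0.841% of all ends in 1 to 4 libraries.

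**Figure D2:**
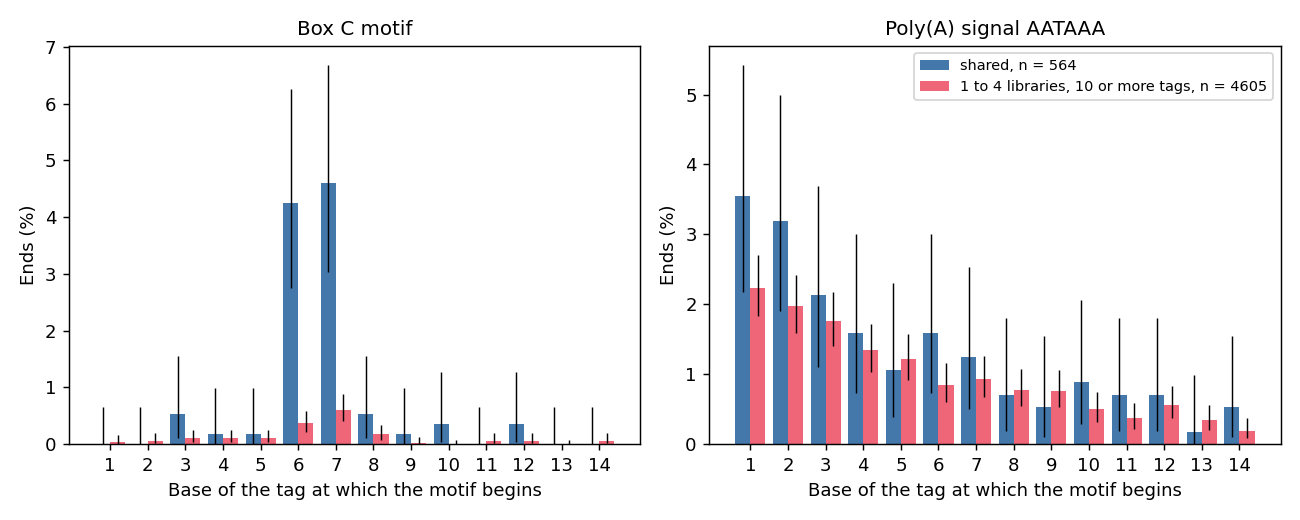
Percent of ends (vertical axis) whose tag holds the box C letters (left) or AATAAA (right) beginning at each base of the tag (horizontal axis), for shared ends and for ends in 1 to 4 libraries with at least 10 tags; error bars are 95% exact binomial intervals. The box C letters of shared ends pile up at bases 6 and 7, whereas AATAAA is most frequent at bases 1 to 3 in both sets.

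The share with the box C motif stood higher in ends found in more libraries. Among ends with at least 10 tags it was 0.119% for 1 library, 0.881% for 2, 1.10% for 3 and 2.74% for 4. It was 7.98% (5.37 to 11.3) for 5 libraries and 16.9% (11.2 to 23.9) for 6. The rule uses this number of libraries, and tag level differed too. For 1 to 6 libraries the median tags of these ends were 16, 15, 15, 19, 31 and 114. The part of tag level in the box C shares was not tested. The ends present in a given library are a subset of the same ends, so their shares are no separate support. Of the shared ends present in brain, 8.78% (6.23 to 11.9) held the motif. Of the other ends present there with at least 10 tags over all libraries, 1.38% (0.507 to 2.97) did. For ends present in ovary these shares were 10.8% (8.12 to 14.0) and 3.23% (2.06 to 4.81).

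**Figure D3:**
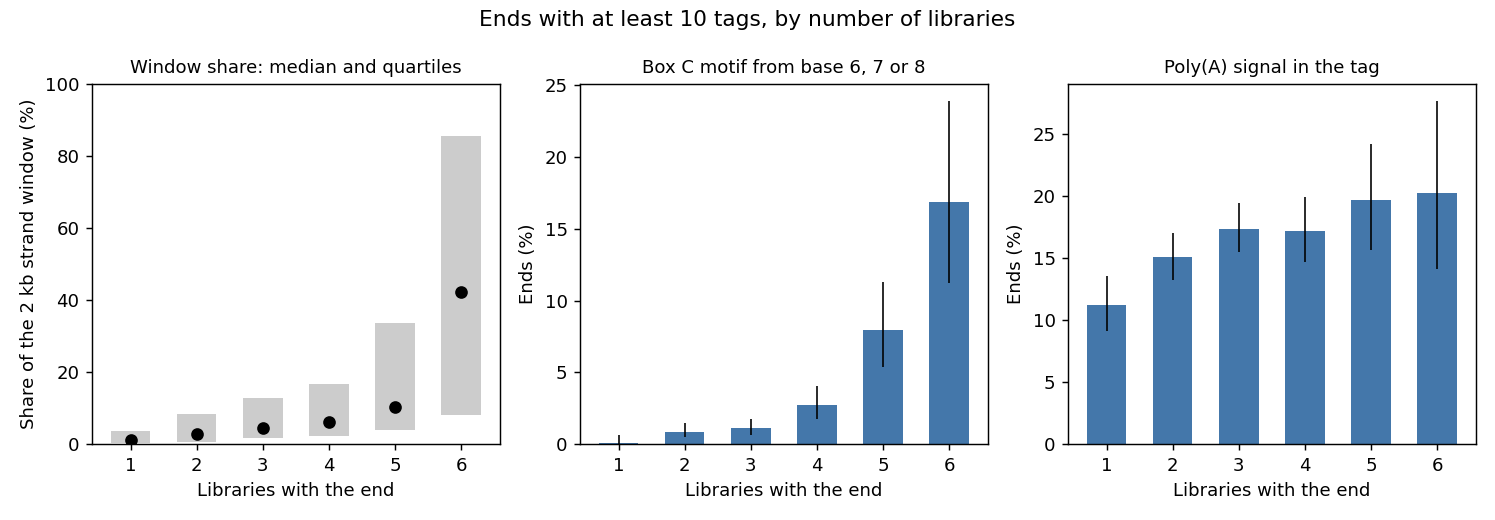
Ends with at least 10 tags, by the number of libraries that hold them (horizontal axis): share of the tags of their 2 kb strand window (left, point for the median, bar for the quartiles), percent with the box C motif from base 6 to 8 (middle) and percent with a poly(A) signal (right), with 95% exact binomial intervals. The median window share is 1.19% for 1 library and 42.3% for 6, and the box C share 0.119% and 16.9%. Median tags are 16 for 1 library and 114 for 6.

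Of the 52 ends of the box C class, 18 lay in genes whose start could be matched: 9 in Gas5, 4 in 2410006H16Rik, 2 each in Rack1 and Atp5b, and 1 in Gm36220. Gas5 and 2410006H16Rik are RNAs without a known protein product that host snoRNAs, Rack1 encodes a ribosomal scaffold protein and Atp5b a subunit of ATP synthase. RefSeq lists a snoRNA gene that starts within 10 nt of 15 of the 18 ends, by distance from the host's start, among them Snord49b and Snord49a in 2410006H16Rik, Snord96a in Rack1, Snord59a in Atp5b and Snord104 in Gm36220. Outside the class, 3 more shared ends lay at such a start: a Gas5 end at Snord47, another Gas5 end at a snoRNA without a Snord symbol, and 1 in Rpl13a at Snord34. In all, 18 shared ends met 13 snoRNA genes. The 3 box C ends that met none were 1 in Gas5 and 2 in 2410006H16Rik, the latter 3 and 4 nt upstream of the end at Snord49b.

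The strongest of them, in 2410006H16Rik at position 62416576 of chromosome 11, had 9153 CPM in spleen, 4142 in ovary, 2267 in liver, 2146 in lung, 1504 in kidney and 1138 in brain. Spleen exceeded ovary by 2.21 times (1.80 to 2.73). Position 62416579, 3 nt downstream, again stood highest in spleen at 1397 CPM, but lowest in kidney at 43.1 CPM. Neighbouring bases could differ in level: on chromosome 8, the end at 125626932 had 2375 CPM in spleen, 1937 in lung, 659 in kidney, 266 in liver, 171 in ovary and 120 in brain. The end 1 nt downstream of it varied least among these, between 512 and 635 CPM in 5 libraries with 150 CPM in brain. As a class, box C ends took 2.13% (1.996 to 2.27) of the spleen tags and 1.48% (1.34 to 1.62) of the ovary tags. They took 1.30% (1.27 to 1.33) of the lung library, 0.828% (0.785 to 0.874) of kidney, 0.678% (0.622 to 0.737) of liver and 0.473% (0.403 to 0.553) of brain. Spleen was thus 4.50 times (3.80 to 5.36) brain, and without the strongest end it stood at 1.22% against 1.09% in lung. The lead of spleen was lost under both other scalings: over shared ends lung had a scaled percent of 1.54 and spleen 1.48, and over all ends 6.03 and 1.13.

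The poly(A) signal stood in 20.9% (17.6 to 24.5) of shared ends, against 15.5% (14.4 to 16.5) of ends with at least 10 tags in 1 to 4 libraries and 6.74% (6.67 to 6.82) of all ends in 1 to 4 libraries. With 1 end counted for each run of ends within 10 nt, the share was 17.4% (13.8 to 21.4) of 403 shared runs. For the ends with at least 10 tags in 1 to 4 libraries it was 15.1% (13.5 to 16.7) of 1925 runs, and the intervals overlap. The difference was thus smaller with neighbouring ends counted once, and which runs account for this was not tested. It also did not run one way in every library. In kidney 20.3% (16.999 to 23.9) of the shared ends held a signal, against 9.18% (8.08 to 10.4) of the others with at least 10 tags. In spleen the order was turned, with 24.8% (21.0 to 29.0) of the shared ends against 33.0% (30.6 to 35.6). AATAAA began at base 1, 2 or 3 in 50 of the 105 shared ends that held it.

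Within genes the poly(A) class lay close to the 3' end. Gene starts could be matched for 1304 of 27025 genes, and 132 shared ends fell in 50 of them, all distances being taken with the gene length of GRCm38. Of 29 poly(A) ends in 15 such genes, 28 lay within 100 nt of the gene's 3' end, at a median of 30 nt (27 to 43). The exception was an end in Rack1, 181 nt before it. The 84 ends without a motif lay at a median of 105 nt (82 to 138) and 41 of them within 100 nt, whereas the 18 box C ends lay at a median of 1794.5 nt (1179 to 3139) and none within 100 nt. Over all classes the median was 93 nt (71 to 134) for shared ends and 129 nt (116 to 140) for 1115 ends in 174 genes with at least 10 tags in 1 to 4 libraries. Of the latter, the 105 with a poly(A) signal also lay close, at a median of 34 nt (30 to 42), 75 of them within 100 nt. Nearness to the 3' end was thus not particular to shared ends with a signal.

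**Figure D4:**
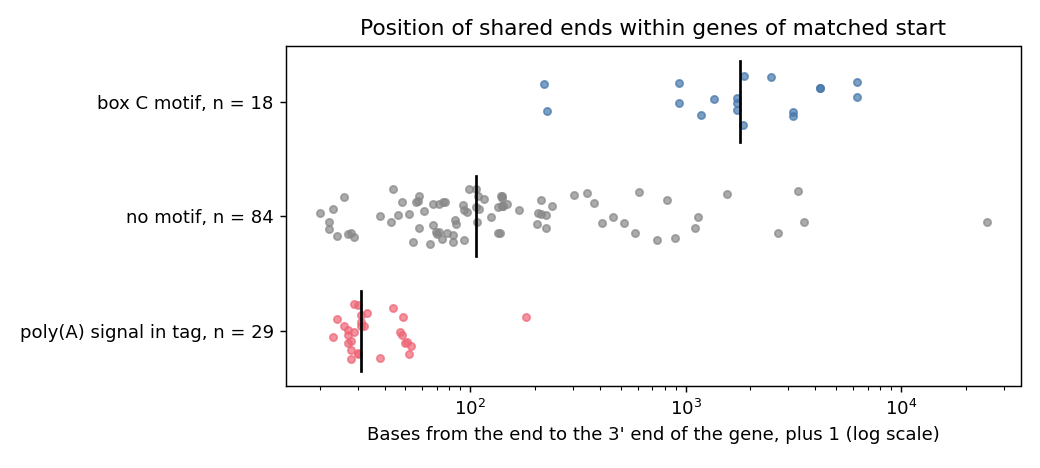
Distance from each shared end to the 3' end of its gene (horizontal axis, bases plus 1, log scale), for the 3 classes with several ends in genes of matched start; each point is 1 end, spread vertically for legibility, and the line is the median. Ends with a poly(A) signal cluster around 30 nt, ends without a motif around 105 nt, and box C ends lie further inside.

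Shared ends gathered in a few genes. Apoe, which encodes the lipid carrier apolipoprotein E, held 20 of them between 46 and 239 nt from its 3' end, 7 with a poly(A) signal. Their summed level was 10361 CPM in liver, 1188 in spleen, 633 in lung, 569 in brain, 555 in kidney and 548 in ovary, so liver stood far above all others. Hbb-bs, an adult beta globin of red blood cells, held 13 between 43 and 147 nt. They summed to 4378 CPM in spleen, 2018 in lung, 479 in brain, 216 in kidney, 215 in liver and 171 in ovary. In whole tissue, more blood cells and more RNA per cell cannot be told apart. Gas5 held 11, which summed to 1643 CPM in ovary, 1118 in spleen, 1085 in lung, 937 in kidney, 621 in liver and 419 in brain, a narrower spread than in Apoe or Hbb-bs. Liver was highest for Apoe under each scaling, whereas lung was highest for Hbb-bs when scaled over all ends and kidney for Gas5 when scaled over shared ends. Sod1, the cytosolic superoxide dismutase, held 9 within 71 nt of its 3' end, with 242 tags. 2410006H16Rik and Atp5b held 5 each, and Atp5g3 and Oaz1 4 each. A window on chromosome 9, minus strand from 61760001 to 61762000, held 11 shared ends within 17 nt, 10 with a poly(A) signal, but no gene could be matched there.

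Of the genes listed for ribosomal proteins, starts could be matched for 19 of 86, and 6 of these held 7 shared ends: Rps21 had 2, and Rpl4, Rpl13a, Rpl35, Rpl38 and Rps26 had 1 each, with 7 to 22 tags an end or 27 tags over both ends of Rps21. That is 31.6% of the 19, and over all 1304 matched genes 3.83% held a shared end. Of 12 further translation genes only Rack1 had a matched start, with 3 shared ends and 203 tags. Of these 3 ends, 2 were the box C ends at Snord96a, with 145 tags. The Rpl13a end counted above lay at Snord34.

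The poly(A) class as a whole took 2.71% (2.56 to 2.87) of the spleen tags, 1.80% (1.76 to 1.84) in lung, 1.48% (1.40 to 1.57) in liver, 0.661% (0.571 to 0.760) in ovary, 0.476% (0.405 to 0.556) in brain and 0.283% (0.258 to 0.311) in kidney. The highest, spleen, was 9.56 times (8.58 to 10.7) the lowest. This lead too was lost when scaled: over shared ends lung had a scaled percent of 2.13, liver 1.89 and spleen 1.88, and over all ends lung had 8.34 and spleen 1.44. Its strongest members were 2 ends on chromosome 19, minus strand, at 9158153 and 9158156, with 1948 and 1800 tags. Of these, 1931 and 1789 were lung tags, and spleen held 1 at each. These 2 ends count as shared although nearly all of their tags came from 1 library.

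The 14 ends of the chromosome 17 stretch fell in several groups. The first 3 lay next to one another at 39979943 to 39979945 and held 6152 of the 7174 tags. The strongest, at 39979944, stood at 7805 CPM in ovary, 6479 in lung, 4751 in spleen, 1553 in kidney, 1507 in liver and 779 in brain. The other 11 began 3490 to 4785 nt further on, and their letters are those of 18S ribosomal RNA as far as general knowledge goes, which was not checked against a database. Most of their stronger members were ordered otherwise. The end at 39983433 had 468 CPM in kidney, 456 in liver, 449 in brain, 318 in lung, 140 in spleen and 68.5 in ovary. Ovary and spleen were thus lowest at this end, as they were at 39983434 and 39983531. An exception was the end at 39984725, with 93 tags, where ovary was highest at 205 CPM and spleen had no tag. At the first group lung, not ovary, was highest at 39979944 under both other scalings.

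The 7 ends with the letters GGTGGCGCA had most of their tags in lung, the deepest library. Lung had 4484 of their 4877 tags, or 0.909% (0.883 to 0.936) of its library, against 0.298% (0.239 to 0.367) in ovary, 0.296% (0.247 to 0.352) in spleen and 0.0180% (0.00660 to 0.0391) in brain. Lung was 50.6 times (23.2 to 138) brain. The letters occurred in 1.24% of the shared ends, in 0.0869% of the ends with at least 10 tags in 1 to 4 libraries and in 0.0138% of all ends in 1 to 4 libraries. Because these letters were chosen after the tags had been seen, this contrast is a description. Of the 7, 4 lay on chromosome 6 and shared most of their letters, with the motif in capitals.
chr6:128749539-128749559, minus strand: gccggtcctGGTGGCGCAggc
chr6:128710799-128710819, minus strand: gccggttctGGTGGCGCAggc
chr6:128788469-128788489, plus strand: gccggctctGGTGGCGCAggc
chr6:128714221-128714241, minus strand: gccggtactGGTGGCGCAggc
They held 1106, 1122, 404 and 122 tags in this order. Their tags differ at a few letters, and tags that could not be so placed were left out of the counts.

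First bases differed less between shared ends and others than the motifs did. A tag began with A at 35.6% (31.7 to 39.7) of the shared ends, T at 31.2% (27.4 to 35.2), C at 20.7% (17.5 to 24.3) and G at 12.4% (9.80 to 15.4). Among the ends with at least 10 tags in 1 to 4 libraries these were 33.3%, 36.3%, 22.6% and 7.84% (7.08 to 8.65). G was thus more frequent at shared ends by this count. A or T together began 66.8% (62.8 to 70.7) of shared ends and 69.6% (68.2 to 70.9) of the others. The share of G at shared ends was 9.28% with ends within 1 nt merged and 17.7% with at least 2 tags in a library. Among ends in 1 library with at least 10 tags G began 10.2% (8.27 to 12.5). Further inside the tag, A at base 5 stood at 39.0% against 33.8% and G at base 11 at 32.6% against 25.4%. Both are examples from all bases of the tag. A box C motif that begins at base 7 puts G at base 11. It began there at 4.61% of the shared ends and 0.608% of the others, and its part in the G share was not tested. Median GC content was 45% in both sets.

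Shared ends took a larger part of the tags around them than other ends did. Since the same tags chose the ends, this is a description. The median shared end held 11.9% (9.78 to 14.25) of the tags of its 2 kb strand window, and 136 of the 564 held at least 50%. The ends in all 6 libraries had a median of 41.6% (27.8 to 54.6), against 8.70% (7.71 to 10.7) for those in 5. Ends with at least 10 tags in 1 to 4 libraries had 3.40% (3.19 to 3.61). Within 50 nt on either side, the median shared end held 20.6% of the tags and the other ends 7.47%. MicroRNA ends stood most alone, with a median of 96.7% of the tags within 50 nt, then B1-like ends with 96.0% and box C ends with 60.3%. The poly(A) class was embedded among other ends, with a median of 11.2%.

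The ends with the highest window share and at least 20 tags were all the tags in their window, at 5 places. One on chromosome 6, plus strand at 96175201, had 117 tags in brain, 10 in lung, 1 each in liver, kidney and ovary and none in spleen. Another, on chromosome 13, plus strand at 41956756, had 66 tags in kidney, 55 in brain, 38 in lung, 6 in liver, 1 in spleen and none in ovary. Those on chromosome 19, plus strand at 9016033, chromosome 14, minus strand at 52777488, and chromosome 7, minus strand at 134168074, had 88, 25 and 22 tags. None of the 5 matched a gene, a hairpin or a motif. In the first, brain held 117 of the 130 tags.

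By median level over the 6 libraries, the chromosome 1 end stood first. It held 12279 tags in kidney, 5314 in lung, 1267 in brain, 716 in ovary, 602 in liver and 18 in spleen. In CPM, kidney was highest at 75670, followed by brain at 37955, ovary at 24510, lung at 10776, liver at 7625 and spleen at 419, a range of 181 times. Kidney exceeded brain by 1.99 times (1.88 to 2.11). The neighbouring shared end at 24619957 has a tag with different letters at some of the same bases, so not both can match the genome exactly. To which locus the tags of the chromosome 1 end belong was not tested. The chromosome 10 end was more even: it stood at 18188 CPM in lung, 11912 in ovary, 6051 in brain, 5356 in spleen, 4002 in liver and 3186 in kidney. On chromosome 19 the end at 31161459 led in brain at 29058 CPM, 4.59 times (4.27 to 4.93) the lung level of 6331, with 5636 in liver, 2818 in spleen, 1712 in ovary and 1226 in kidney. All 3 took at least 86.8% of their window.

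**Figure D5:**
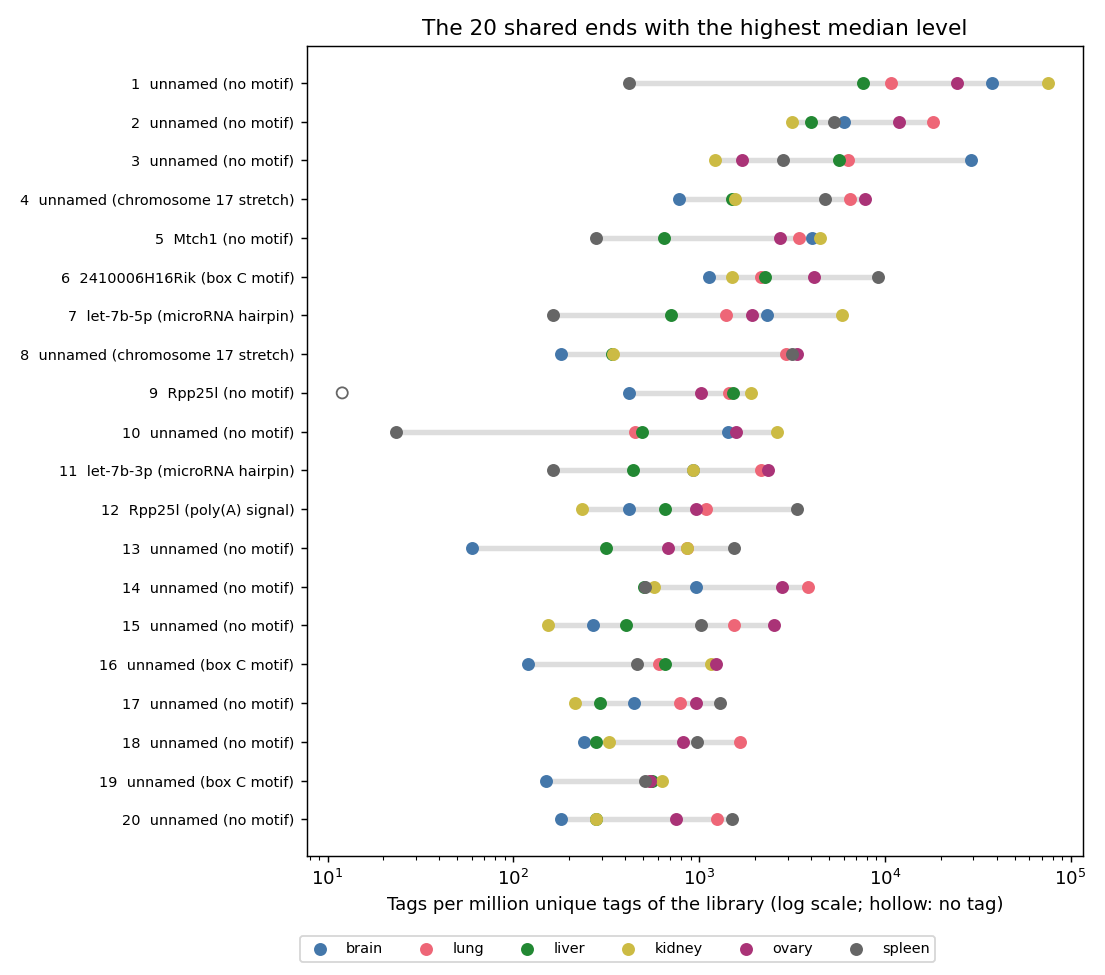
Level in each library (horizontal axis, CPM, log scale) of the 20 shared ends with the highest median over the 6 libraries, 1 row an end in order of the median; a hollow point at the left marks a library with no tag. The chromosome 1 end in the first row spans 419 to 75670 CPM, and the box C end in row 19 lies between 512 and 635 CPM in all libraries but brain.

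Of these 20 ends, 12 kept their highest library when scaled over shared ends and 6 when scaled over all ends, where lung was highest at 17. The chromosome 1, chromosome 10 and let-7b-5p start ends were among those that kept it under both. Of the 20, 3 were box C ends, 2 lay at let-7b, 2 in the chromosome 17 stretch and 1 held a poly(A) signal. Mtch1, a protein of the mitochondrial outer membrane, held the fifth, 66 nt from its 3' end and 98.7% of its window. It stood at 4480 CPM in kidney, 4044 in brain, 3460 in lung, 2739 in ovary, 646 in liver and 279 in spleen, and kidney and brain did not differ beyond counting error (1.11 times, 0.921 to 1.34). Rpp25l, related to a subunit of RNase P, held 2 of the 20, between which kidney and spleen changed places in the order of CPM. Its end 406 nt from the 3' end had 1917 CPM in kidney, 1520 in liver, 1450 in lung, 1027 in ovary, 419 in brain and no tag in spleen. Its end 29 nt from the 3' end, which holds the poly(A) signal, had 3377 CPM in spleen, 1095 in lung, 958 in ovary, 659 in liver, 419 in brain and 234 in kidney. Kidney was thus highest at the first and lowest at the second, and spleen had no tag at the first and was highest at the second.

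To count ends dominated by a tissue, the highest library had to hold 20 tags or more and the interval of its ratio over the next had to lie above 1; such an end is called led. Of 169 shared ends with at least 20 tags in their highest library, 97 were so led (57.4%), against 59.1% of all 1267 ends of the series with such a count, a share near the background. Liver led 30 of the 34 such ends where it was highest, lung 23 of 60 and spleen 22 of 29. Brain led 9 of 9, kidney 8 of 28 and ovary 5 of 9. In a shallower library 20 tags stand for a higher CPM, so these counts cannot be compared directly between libraries. Scaled over shared ends, 92 of the 97 kept their highest library, and scaled over all ends 72 did. Ranked by the interval's lower end, the first were a chromosome 1 end, minus strand at 82084451, with 9197 CPM in brain and 243 in lung as the next (37.8 times, 30.5 to 47.1), and an X chromosome end, minus strand at 50406452, with 37654 CPM in ovary and 1286 in lung (29.3 times, 26.5 to 32.3). Next came 2 neighbouring ends on chromosome 5, plus strand at 90905579 and 90905580, with 31386 and 6612 CPM in liver, and then the lung end on chromosome 19 at 9158156. These ends were ranked by that ratio, so their unequal levels follow from the choice. An end counted as present in 5 or 6 tissues can thus differ widely in level. The part of carried-over tags in such presence was not tested.

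The most even ends with at least 5 tags in every library were few, 24 in all, and their highest level was a median of 9.94 times (6.91 to 16.4) the lowest. The smallest such ratio, 3.62, belonged to the box C end on chromosome 19, plus strand at 8799023. Ovary stood at 650 CPM, lung at 381, kidney at 357, liver at 304, spleen at 186 and brain at 180. The chromosome 8 box C end at 125626933 followed with 4.24, then ends on chromosomes 9, 10 and 8 with 5.51, 5.71 and 6.05. Over the 151 ends in all 6 libraries the ratio had a median of 10.8 (8.91 to 16.01), and the widest was 1182.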

How the data were processed

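PARE tags of 6 tissues, 1 library each, were aligned with Bowtie to mm9, per the submitters' processing notes; its version and settings were not stated in those notes. Every line of the deposited tables gives a tag sequence with its read count, and the score the authors deposited, a display density, was not used. Sequences listed at 2 locations within a table (9.76% to 15.5% of lines) were left out. Minus-strand sequences are written in reference orientation (98.9% identical to plus-strand tags over 25718 shared bases) and were complemented. Counts were summed by 5' end. An end takes the sequence with the most tags.

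Shares carry exact Clopper-Pearson intervals, ratios of CPM conditional binomial intervals, and medians order-statistic intervals, all at 95%. Tag windows are fixed, 2000 nt and on 1 strand. Gene starts were matched by tags of 17 nt or more identical to 1 gene's 300-base RefSeq start window (GRCm38.p6), and hairpins likewise, or by at least 10 last bases. No coordinates were converted. Python 3.11.15, NumPy 2.4.6, pandas 2.3.3 and SciPy 1.17.1 were used, and the steps were tested on simulated data.

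The members and gene lists were chosen with earlier results of these data known, and the motifs and the chromosome 17 stretch after the tags had been seen. Named ends are the 20 with the highest median CPM, 5 each by window share, by ratio over the next library and by evenness, all ends at a mature start or after a 3' arm, and the 5 genes with most shared ends. Others named as examples were chosen after their values were seen. Alternatives tried concerned reads at 2 locations, merging within 1 nt, tag minimum, number of libraries, windows and scaling.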

Additional observations from a re-analysis of the deposited data

Results flagged for a closer look

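Sequences listed at 2 locations were left out of every count above. Among them, 73 sequences were found in 5 or 6 libraries, a signal in data outside the main measurement. Their part of the reads so listed was 14.9% for liver, 12.6% for lung and 12.3% for brain, and 10.7% for kidney, 10.1% for ovary and 9.34% for spleen. No control library exists to set a background for them, and to which location they belong was not tested.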

How the results depend on the processing

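The number of shared ends depended on the definition. It was 748 with reads at 2 locations kept, 894 with ends within 1 nt merged, 147 with at least 2 tags in a library and 151 when all 6 libraries were required. Leaving out 1 library and asking for a tag in the 5 others gave 151 (without lung) to 305 (without brain). Without its strongest shared end, the share of tags was 6.95% for kidney, 9.11% for spleen, 10.2% for brain, 11.9% for liver, 12.1% for lung and 12.8% for ovary. With reads at 2 locations kept it was 13.9% in lung, 15.6% in ovary and 10.5% in spleen. A or T began 89.7% of the tags at shared ends in brain, 83.6% in kidney and 82.0% in ovary, and 61.9% of the ends with at least 2 tags in a library. G began 2.80% of these tags for brain, 8.74% for kidney, 9.26% for ovary, 17.2% for lung, 18.0% for spleen and 28.3% for liver. Among merged ends G began 9.28%, and among those with at least 2 tags 17.7%. Weighted shares were not computed for other ends. The median window share was 16.2% as a mean over libraries and 36.7% with all shared ends of a window summed. Ends led by 1 library numbered 237 with a trimmed mean of M values over all ends, most of which have 1 tag, and 52 with a lower bound above 2. Leaving out 1 library gave 71 (without liver) to 115 (without ovary). That scaling called 20 of the 20 strongest ends led, against 13 in CPM, but at 14 of them by another library, always lung. At these 14 the library that was highest in CPM had scaled levels of 13817 (chromosome 19), 3248 and 1396 (chromosome 17 stretch), 8898 (Mtch1), 4850 (2410006H16Rik), 3806 and 1789 (Rpp25l), 983 (after let-7b-3p) and 1261 (chromosome 8, box C), and 814.5, 1054, 513, 691 and 802 at unnamed ends. With tags within 1 nt summed, the chromosome 8 box C end had 1294 CPM in kidney, which was no longer highest. The library with the highest class share in CPM, over the highest other, changed with scaling over shared ends and over all ends, alternatives chosen after seeing the data. The ratios were 2.29 and 0.706 for microRNA, 0.567 and 0.0998 for the chromosome 17 stretch, 0.959 and 0.187 for box C, 5.24 and 25.9 for B1-like, 0.882 and 0.172 for poly(A), and 0.829 and 0.344 for no motif, where under 1 means that another library was highest. With tags weighted and libraries equal, the chromosome 17 stretch took 5.23%, the poly(A) class 9.997% and ends without a motif 69.7%. With at least 2 tags in a library the classes were microRNA 7.48%, chromosome 17 stretch 5.44%, box C 17.7%, B1-like 2.72%, poly(A) 16.3% and no motif 50.3%. In all 6 libraries box C was 15.9% and no motif 53.6%. Counting 1 end for each run within 10 nt, an alternative chosen after seeing the data, left 8.93% with the box C motif and 17.4% with a poly(A) signal. The cause of these differences was not tested. No paired analysis was possible because each tissue has 1 library and the labels share no more than 1 replicate number. Depth limits presence: 1 tag is worth 34.2 CPM in ovary and 2.03 CPM in lung, so an end at the same level can be missed in 1 library and seen in another.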
